A study of Mus musculus with 18 samples.

Results

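The 43 genes described here are components and regulators of the mTORC1 pathway, out of 22783 genes measured in mouse cerebellum. They were chosen by name for their place in the pathway, though with earlier results of these data known. They cover the mTOR complexes, Rheb and the TSC complex, PI3K and AKT signalling, and the Rag GTPases with Ragulator and folliculin. The GATOR complexes, the sestrins with Ddit4 and AMPK, and the effectors are included too. RNA came from cerebella of FVB mice of 2 genotypes at postnatal weeks 5, 12 and 28, with 3 libraries in each of the 6 groups. One genotype, Cck-/-, has by its label no intact copy of the gene for the neuropeptide cholecystokinin. In the other, ATXN1[30Q]D776/Cck-/-, the same gene is missing and a transgene supplies ataxin-1, whose expanded form causes spinocerebellar ataxia type 1, with an aspartate where a serine is normally phosphorylated; the label does not say whether the 30 glutamines it names count as expanded. Its libraries are called transgenic here. Every library was thus from a mouse labelled Cck-/-, so no comparison shows what the loss of Cck does. The labels do not state the promoter of the transgene (in the published lines with this mutation it is the Purkinje cell promoter of Pcp2) and do not state whether each library of a group is a different animal. The p-values measure the spread between these libraries, which may be technical.

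mTORC1 is a protein kinase complex that promotes protein synthesis and restrains autophagy when growth factors, amino acids and energy are sufficient. Growth factors act through PI3K and AKT, which relieve the block that the TSC complex places on the small GTPase Rheb, and amino acids act through the Rag GTPases, which bring mTORC1 to the lysosome, where Rheb switches it on. Much of this control works through phosphorylation and location of proteins, which RNA levels do not measure. In Purkinje cells, the large output neurons of the cerebellar cortex, mTORC1 activity is known to matter for cell size and survival, and the series concerns that activity in mice with ataxin-1 disease.

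Levels are given in FPKM as deposited, which divide a gene's fragments by its length and by a measure of library size. The sources used here do not state which measure was used. They summed to 389248 to 441509 per library, and the read depth behind them is unknown. All 43 members passed the filter of 1 FPKM in at least 3 libraries, as did 13487 genes in all. The Purkinje cell marker Pcp2 stood at 232 to 817 FPKM and the granule neuron marker Gabra6 at 250.04 to 464 FPKM over the libraries, as the label of cerebellum implies. Cck itself stood above 0 in every library although every mouse is labelled Cck-/-, at 17.1 to 25.8 FPKM in Cck-/- and 81.0 to 112 FPKM in transgenic libraries at week 5. Choroid plexus genes were low in 3 libraries, replicates 1 and 2 of the transgenic week 5 group and replicate 3 of the transgenic week 28 group, with a mean log2 level of 1.35 to 1.67 against 3.18 to 4.86 in the others. Another 3, replicate 2 of Cck-/- week 5, replicate 2 of transgenic week 12 and replicate 1 of transgenic week 28, held both Xist and the Y-linked Ddx3y, the smaller at 3.25% to 11.9% of the larger. Calls that ended when either set of 3 was left out are named beside the results. Sex was read from which of Xist and Ddx3y was higher. By this, the Cck-/- groups of weeks 5 and 12 held 1 female and 2 male libraries each. The Cck-/- week 28 group and each transgenic group held 2 female and 1 male. Sex was thus not balanced between genotypes at weeks 5 and 12.

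The 2 highest members, by their mean over the 18 libraries, were the GTPases Rraga (82.3 to 104 FPKM) and Rheb (70.1 to 89.8 FPKM). Of the core of mTORC1, the kinase Mtor lay at 13.1 to 16.4 FPKM, the scaffold Rptor at 15.3 to 17.9 and the shared subunit Mlst8 at 12.2 to 16.5, so that their ranges overlapped. Its inhibitors differed: Akt1s1, also called PRAS40, lay at 19.2 to 24.8 FPKM and Deptor at 2.33 to 4.07, the second lowest of the 43. Rictor and Mapkap1, which belong to mTORC2 and not mTORC1, stood at 12.6 to 18.3 and 12.998 to 17.3 FPKM. Of the TSC complex, the GTPase-activating subunit Tsc2 (18.5 to 22.6 FPKM) was higher than its partner Tsc1 (9.75 to 14.6) in 18 of 18 libraries, by 1.5 to 2.06 times, and the third subunit, Tbc1d7, lay at 12.2 to 17.997.

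Among the kinases that carry growth factor signals, Akt1 (57.1 to 66.6 FPKM) exceeded Akt2 (32.9 to 53.6) in 18 of 18 libraries, by 1.09 to 1.82 times. The PI3K catalytic subunit Pik3ca lay at 15.1 to 18.4 FPKM, the kinase Pdpk1, which phosphorylates AKT, at 19.7 to 27.1, and Grb10, an adaptor that dampens insulin signalling and is an mTORC1 substrate, at 6.15 to 13.6. Of the Rag GTPases, Rraga exceeded Rragb (40.4 to 48.1) by 1.87 to 2.46 times, though the 2 are near-identical copies and the split of reads between them is uncertain. Rragc (34.7 to 38.0) exceeded Rragd (23.9 to 38.3) in 16 of 18 libraries. The Ragulator subunits, which anchor the Rags to the lysosome, were Lamtor1 (58.1 to 68.9), Lamtor2 (59.4 to 73.8) and Lamtor3 (33.3 to 41.4), and folliculin, Flcn, which acts on Rragc and Rragd, stood at 27.7 to 32.7.

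The GATOR genes, whose complexes pass amino acid shortage to the Rags, were lower: Nprl2 at 20.6 to 24.8 FPKM, Nprl3 at 8.07 to 12.4, Depdc5 at 8.47 to 10.1, Wdr24 at 7.25 to 9.33 and Mios at 6.48 to 8.18. Of the sestrins, stress-induced inhibitors that act on GATOR2, Sesn1 (41.1 to 60.4 FPKM) was above Sesn3 (17.9 to 25.4) and Sesn3 above Sesn2 (3.74 to 11.2) in 18 of 18 libraries. Ddit4, a stress-induced activator of the TSC complex also called REDD1, lay at 22.4 to 32.0, and the AMPK catalytic subunits Prkaa1 and Prkaa2 at 10.6 to 12.5 and 4.48 to 6.32. Of the effectors, the S6 kinases Rps6kb1 (12.9 to 14.8) and Rps6kb2 (12.3 to 17.9) had overlapping ranges. The cap-binding factor Eif4e stood at 44.9 to 52.7, and of its repressors Eif4ebp2 (13.3 to 19.8) exceeded Eif4ebp1 (0.715 to 3.24, the lowest member) by 4.10 to 26.9 times. The autophagy kinase Ulk1 lay at 23.4 to 31.6, the lysosomal transcription factor Tfeb at 6.03 to 9.51 and the leucine transporter Slc7a5 at 19.1 to 40.8. In the plot of all members by library, 3 rows stand out for their contrast within groups, Sesn2, Eif4ebp1 and Slc7a5. For week 28, 2 stand out, Grb10 in both genotypes and Akt2 in transgenic libraries. The Cck-/- week 28 values of Akt2 were 42.5, 48.6 and 44.4 FPKM. Of these, 42.5 was just below the lowest earlier library of either genotype (42.6, transgenic week 12 replicate 1). Both 42.5 and 44.4 were below every earlier Cck-/- library (47.8 to 52.6).

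**Figure D1:**
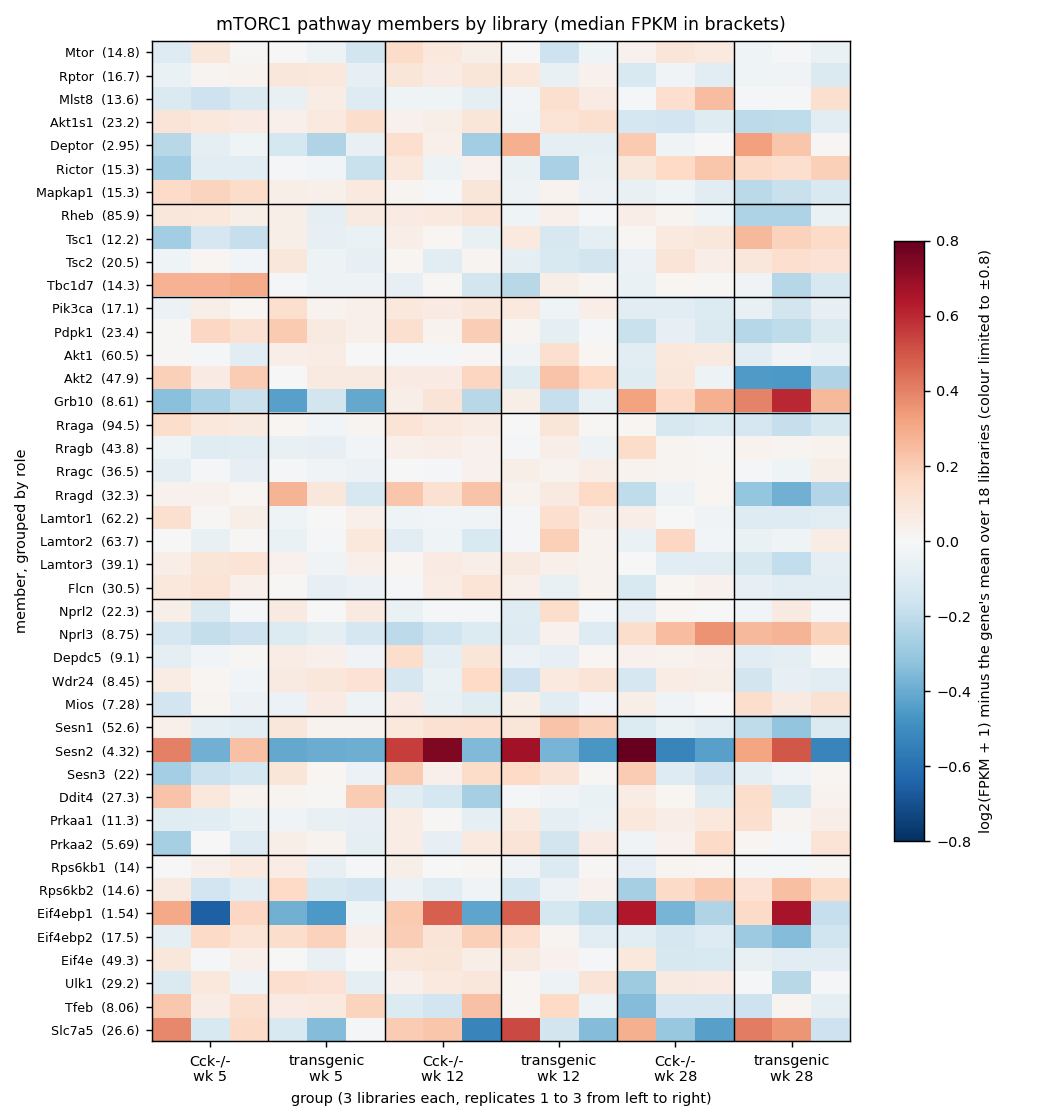
Level of each of the 43 members (rows, grouped by role, median FPKM in brackets) in each of the 18 libraries (columns, 3 per group), as log2(FPKM + 1) minus the member's mean over the libraries. Red is above and blue below the mean. Most rows are pale, and Sesn2, Eif4ebp1 and Slc7a5 differ most between libraries of the same group.

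Promoters are shown for the 3 members called between genotypes at a single age and for Sesn2, the member with the widest spread within groups. Each is the stretch of 250 bases before the first annotated start, 5′ to 3′ on the gene's strand, from RefSeq on GRCm38.p6, with capitals marking the letters CACGTG, the E-box read by TFEB and related factors of lysosomal genes.
Tbc1d7, chr13:43171502-43171751, minus strand: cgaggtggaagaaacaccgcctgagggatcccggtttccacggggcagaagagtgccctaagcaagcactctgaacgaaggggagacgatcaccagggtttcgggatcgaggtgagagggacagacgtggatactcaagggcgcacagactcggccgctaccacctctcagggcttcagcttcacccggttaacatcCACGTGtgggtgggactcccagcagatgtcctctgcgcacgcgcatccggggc
Rheb, chr5:24842362-24842611, minus strand: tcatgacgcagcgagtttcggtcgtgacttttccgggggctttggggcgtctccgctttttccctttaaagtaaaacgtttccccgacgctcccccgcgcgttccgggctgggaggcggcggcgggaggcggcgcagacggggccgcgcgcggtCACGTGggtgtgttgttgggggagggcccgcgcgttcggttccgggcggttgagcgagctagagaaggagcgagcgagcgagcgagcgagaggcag
Akt2, chr7:27591302-27591551, plus strand: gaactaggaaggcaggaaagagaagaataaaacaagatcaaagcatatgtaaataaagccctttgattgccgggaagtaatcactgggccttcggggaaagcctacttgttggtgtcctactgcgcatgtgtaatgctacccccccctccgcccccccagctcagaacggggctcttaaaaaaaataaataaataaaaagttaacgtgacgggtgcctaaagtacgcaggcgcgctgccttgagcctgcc
Sesn2, chr4:132510457-132510706, minus strand: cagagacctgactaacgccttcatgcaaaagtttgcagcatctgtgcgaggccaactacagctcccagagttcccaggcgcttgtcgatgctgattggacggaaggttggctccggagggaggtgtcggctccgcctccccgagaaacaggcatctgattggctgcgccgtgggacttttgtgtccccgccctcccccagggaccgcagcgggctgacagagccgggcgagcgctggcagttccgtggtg

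The E-box lay 53 bases before the start in Tbc1d7 and 96 before it in Rheb, and was not found in the stretches of Akt2 and Sesn2. RefSeq windows of 300 bases, 250 before to 50 after a start, were found for 37 of the 43 members, 48 windows in all. CACGTG, which reads the same on both strands, was in 6 of them (12.5%), those of Eif4e, Lamtor1, Rheb, Rragb, Rragc and Tbc1d7, against 7.15% of 32851 windows of all genes. The letters TGATGNAA, a form of the element bound by ATF4, searched on both strands and sharing no letters with the E-box matches, were in 1 member window, that of a later start of Akt2, against 3.97% of all windows. A match describes these letters only.

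Between genotypes, the members differed little. No member differed by more than 0.5 on the log2 scale at any single age, where the median SE of a member's difference was 0.058 (from 0.031 in Rragc to 0.40 in Sesn2). All differences are transgenic minus Cck-/- in log2(FPKM + 1), which understates the change of low genes, and a call is an adjusted p under 0.05 by limma with Benjamini-Hochberg adjustment over the 13487 genes. Of the 43 members 1 was called at week 5, 0 at week 12 and 2 at week 28, and all 3 calls were of lower levels in transgenic libraries. Among all genes 7.67%, 1.36% and 10.7% were called at these ages, and 4.37% and 6.13% were called lower at weeks 5 and 28, so the members' share was below that of all genes at each age. In bulk tissue, fewer cells of a type and less RNA per cell cannot be told apart.

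**Figure D2:**
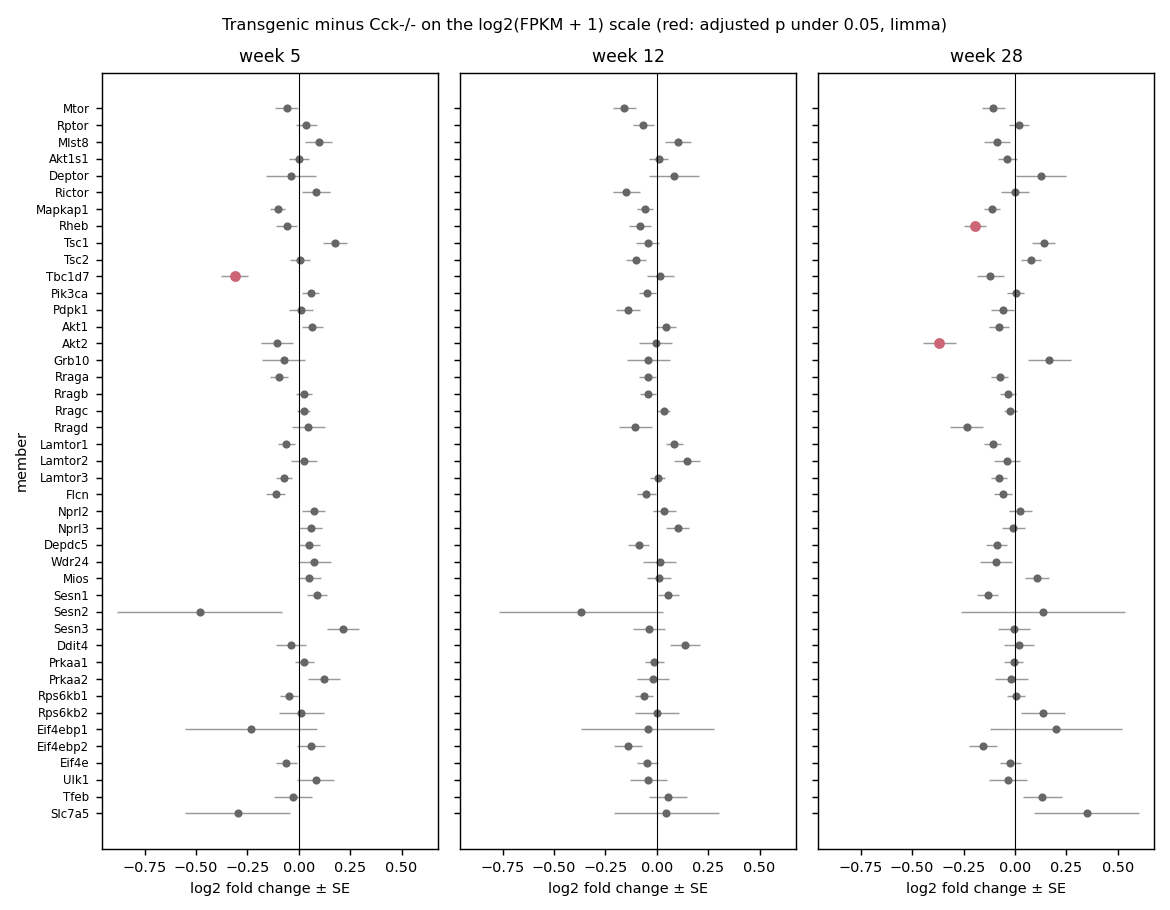
Difference between genotypes, transgenic minus Cck-/-, for each of the 43 members (rows) at weeks 5, 12 and 28 (panels), in log2 units with SE bars from limma. Red marks the called members: Tbc1d7 at week 5 (-0.31), Akt2 (-0.37) and Rheb (-0.19) at week 28. Bars are widest for Sesn2, Eif4ebp1 and Slc7a5.

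At week 5 the called member was Tbc1d7 (chromosome 13, 43151742 to 43171501, mm10), the subunit that stabilises the TSC complex. It stood at 17.8, 17.8 and 17.997 FPKM in the 3 Cck-/- libraries and at 14.4, 14.1 and 14.1 FPKM in the 3 transgenic ones (means 17.9 ± 0.111 and 14.2 ± 0.191, SD, n = 3 each). The groups did not overlap, and the difference was -0.31 (SE 0.066, adjusted p = 0.00970, limma). At week 12 the values were 13.8, 14.6 and 13.02 in Cck-/- and 12.3, 15.0 and 14.8 in transgenic libraries, and at week 28 13.9, 14.6 and 14.6 and 14.2, 12.2 and 13.2. The 3 Cck-/- libraries of week 5 were thus above each of the other 15, which ran from 12.2 to 15.0. Tsc1 and Tsc2, its partners, were at 0.18 (adjusted p = 0.0766) and 0.0048 (adjusted p = 0.972). Of the members, 25 were above 0 and 18 below, with a median of 0.013, beside 0.00034 over all genes. With the 3 libraries low in choroid plexus genes set aside, the transgenic group had 1 library at week 5, assumed to vary like the other groups, and no member was called, with the difference of Tbc1d7 at -0.32 (adjusted p = 0.148). The Cck values given above stood apart between genotypes at this age too, as did several sets of markers (mean log2). Mature oligodendrocyte markers were at 7.87 to 8.12 in Cck-/- and 7.44 to 7.45 in transgenic libraries. Purkinje cell markers were at 7.15 to 7.20 and 6.65 to 6.92, and blood markers at 5.86 to 6.56 and 4.22 to 4.63. Markers of oligodendrocyte precursors, of Bergmann glia and astrocytes, and of midbrain and forebrain were also lower in transgenic libraries without overlap. Inhibitory interneuron markers were higher in transgenic libraries, at 4.53 to 4.62 in Cck-/- and 4.76 to 4.91 in transgenic libraries. The part of these differences in the result was not tested.

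At week 12 no member was called, with 1.36% of all genes called, and 4 had an unadjusted p under 0.05. The smallest p were those of Mtor, Pdpk1 and Lamtor2. Mtor stood at 16.4, 15.7 and 15.3 FPKM in Cck-/- and 14.8, 13.1 and 14.4 in transgenic libraries (-0.16, adjusted p = 0.223). The order for Pdpk1 was the same, 25.4, 23.7 and 26.8 against 23.5, 22.1 and 22.9 (-0.14, adjusted p = 0.345), and for Lamtor2 it was opposite, 60.8, 63.0 and 59.4 against 63.8, 73.8 and 65.9 (0.15, adjusted p = 0.362). All 3 pairs of groups were free of overlap. The members' median was -0.039, beside 0.0023 over all genes.

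At week 28 Akt2 and Rheb were called lower, with 10.7% of all genes called and 6.13% called lower. Akt2 (chromosome 7, 27591560 to 27639453, mm10), a kinase that transmits insulin and growth factor signals to the TSC complex, stood at 42.5, 48.6 and 44.4 FPKM in Cck-/- and at 33.1, 32.9 and 38.4 in transgenic libraries (means 45.2 ± 3.09 and 34.8 ± 3.16, SD, n = 3 each). The 3 transgenic libraries were below each of the other 15, and the difference was -0.37 (SE 0.080, adjusted p = 0.00797, limma). Earlier levels in Cck-/- and transgenic libraries in turn were 52.3, 47.9 and 52.6 and 45.7, 47.9 and 48.0 FPKM (week 5), and 47.9, 47.8 and 51.6 and 42.6, 53.6 and 51.1 (week 12). Akt1, the other AKT gene among the members, was at 57.1, 64.6 and 64.2 and 57.4, 59.8 and 58.7 at week 28 (-0.077, adjusted p = 0.363).

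Rheb (chromosome 5, 24802823 to 24842361, mm10), the GTPase that activates mTORC1 directly, stood at 86.8, 84.5 and 81.3 FPKM in Cck-/- and at 70.1, 70.1 and 80.4 in transgenic libraries at week 28. The groups were separate by less than 1 FPKM, since the highest transgenic library was replicate 3, and the difference was -0.19 (SE 0.052, adjusted p = 0.0269, limma). At week 5 it had been at 88.8, 88.6 and 86.1 and 86.1, 79.2 and 87.8, and at week 12 at 87.2, 87.9 and 89.8 and 81.6, 85.8 and 82.9, in Cck-/- and transgenic libraries in turn. The members as a whole had a median of -0.024, with 16 above and 27 below 0, beside 0.0046 over all genes. All 8 members of the Rag, Ragulator and folliculin group were below 0, from -0.23 for Rragd (adjusted p = 0.0787) to -0.024 for Rragc, and none of the 8 was called. The signs of the other role groups are not given here, so a decrease particular to this group is not shown.

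Both week 28 calls depended on single libraries. Akt2 had adjusted p = 0.0506 without transgenic week 28 replicate 2 and kept its call without each of the other 5 libraries compared, at up to 0.0482. Rheb lost its call without Cck-/- replicate 1 (adjusted p = 0.0580) or 2 (0.0839) and without transgenic replicate 1 (0.131) or 2 (0.140). It also lost it without the 3 libraries with both Xist and Ddx3y (-0.16, adjusted p = 0.172) and with quantile normalization (-0.13, 0.0663). Both calls ended when limma was fitted on the compared groups alone, at adjusted p = 0.0725 for Akt2 and 0.193 for Rheb. The share of all genes called without transgenic replicate 3, one of the libraries low in choroid plexus genes, is not given here. A change particular to the members is thus not shown by that fit. In it 4 members were called, Akt2 (-0.44), Rheb (-0.26), Mapkap1 (-0.14) and Sesn1 (-0.18), all lower. Markers of Purkinje cells moved with these genes: the mean log2 level of all 12 markers was 7.18 to 7.23 in Cck-/- and 5.39 to 6.22 in transgenic libraries at week 28, with replicate 3, the highest of the transgenic libraries in Akt2 and Rheb, also the highest in these markers. The 10 microglia markers were at 3.43 to 3.95 and 4.02 to 4.54. Mature oligodendrocyte markers, at 6.43 to 6.82 and 6.84 to 7.01, did not overlap between genotypes either. Nor did midbrain and forebrain markers, at 0.784 to 0.817 and 0.483 to 0.692. The part of these cells in the result was not tested.

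**Figure D3:**
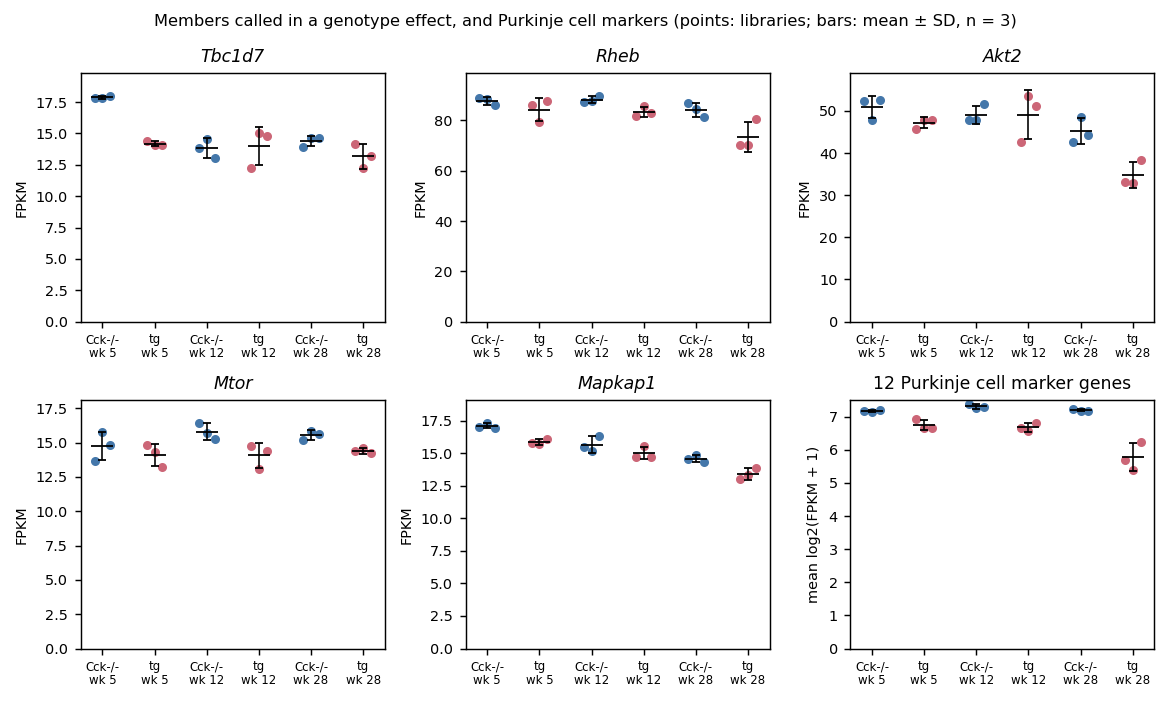
FPKM of the 5 members called in a genotype effect and the mean log2(FPKM + 1) of 12 Purkinje cell markers, by genotype (blue Cck-/-, red transgenic, tg) and week. Points are libraries and bars the mean ± SD of 3. Tbc1d7 is highest in the Cck-/- libraries of week 5 and Akt2 lowest in the transgenic libraries of week 28, where the Purkinje cell markers are lowest too.

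Averaged over the 3 ages, 5 members were called, all lower in transgenic libraries, with 14.8% of all genes called and 8% called lower. By role they were Mtor (-0.11, SE 0.032, adjusted p = 0.0346) and Mapkap1 (-0.091, SE 0.022, adjusted p = 0.0111) of the mTOR complexes, Rheb (-0.11, SE 0.030, adjusted p = 0.0207), Tbc1d7 (-0.14, adjusted p = 0.0227) and Akt2 (-0.16, adjusted p = 0.0286), all by limma. Mapkap1, the mTORC2 subunit also called SIN1, was at 17.0, 17.3 and 17.0 FPKM in Cck-/- and 15.8, 15.7 and 16.1 in transgenic libraries at week 5, at 15.5, 15.1 and 16.4 and 14.7, 15.6 and 14.7 at week 12 and at 14.6, 14.8 and 14.3 and 12.998, 13.3 and 13.9 at week 28. Its groups were separate at weeks 5 and 28 and overlapped at week 12. Mtor was at 13.7, 15.8 and 14.9 and 14.8, 14.3 and 13.2 at week 5 and at 15.2, 15.9 and 15.6 and 14.4, 14.6 and 14.2 at week 28, beside the week 12 values above, and its groups overlapped at week 5.

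Leaving out 1 library at a time, Mapkap1, Rheb and Tbc1d7 kept the averaged call in 18 of 18 fits, Akt2 in 11 and Mtor in 6. Mtor had the highest adjusted p, 0.0709, without Cck-/- week 12 replicate 1, and Akt2, 0.0621, without Cck-/- week 28 replicate 2. The members' median was -0.0029, with 20 above and 23 below 0, beside 0.0025 over all genes. Without the 3 libraries that held both Xist and Ddx3y the calls were Mapkap1, Tbc1d7 and Akt2, with Mtor at -0.076 (adjusted p = 0.174) and Rheb at -0.11 (0.0874). Without the 3 low in choroid plexus genes 2 calls ended, those of Tbc1d7 (-0.14, adjusted p = 0.0947) and Akt2 (-0.18, 0.0521). Rheb also missed the threshold with quantile normalization (-0.079, adjusted p = 0.0546) and Mtor with sex as a covariate (-0.10, 0.0560).

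Whether the genotype difference itself changed with age was tested by interaction terms, and no member was called in any of the 3. From week 5 to 12 (0.667% of all genes called) 5 members had an unadjusted p under 0.05, led by Tbc1d7, whose genotype difference went from -0.31 to 0.016 (interaction 0.33, SE 0.093, adjusted p = 0.144), Tsc1 (-0.22, adjusted p = 0.280) and Lamtor1 (0.14, adjusted p = 0.344). Without transgenic week 12 replicate 1, the lowest of its group in Tbc1d7, the adjusted p of that gene was 0.0231. From week 12 to 28 (0% of all genes called, 1365 of them at an unadjusted p under 0.05) 5 members were at an unadjusted p under 0.05, led by Lamtor1 (-0.19, adjusted p = 0.406), Akt2 (-0.36, SE 0.11, adjusted p = 0.406) and Sesn1 (-0.19, adjusted p = 0.435). From week 5 to 28 (3.65% of all genes called) there were 4, led by Sesn1 (-0.22, SE 0.072, adjusted p = 0.104), Rragd (-0.28, adjusted p = 0.186) and Akt2 (-0.26, adjusted p = 0.211). Sesn1 reached adjusted p = 0.0273 without transgenic week 28 replicate 3. The differences called at 1 age and not at another were therefore not shown to differ between ages.

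Age effects were tested within each genotype. From week 5 to 12, 4 members were called in Cck-/- libraries (11.8% of all genes), 2 higher (5.29% of all genes) and 2 lower (6.53%), and 0 in transgenic libraries (1.19% of all genes), where 5 had an unadjusted p under 0.05. Of the TSC complex, Tsc1 went from 9.75, 10.9 and 10.5 to 12.6, 12.2 and 11.5 FPKM in Cck-/- libraries (log2 change 0.21, SE 0.058, adjusted p = 0.0312), and Tbc1d7 fell as given above (log2 change -0.35, SE 0.066, adjusted p = 0.00322). Sesn3 went from 17.9, 19.3 and 19.7 to 25.4, 22.5 and 24.2 FPKM (log2 change 0.32, SE 0.079, adjusted p = 0.0147) and Ddit4 from 32.0, 28.8 and 27.7 to 25.4, 24.4 and 22.4 (log2 change -0.28, SE 0.075, adjusted p = 0.0237). In transgenic libraries the same 4 genes had log2 changes of -0.018 (Tsc1), -0.022 (Tbc1d7), 0.070 (Sesn3) and -0.11 (Ddit4), none called. Sesn3 (0.34, adjusted p = 0.0670) and Ddit4 (-0.30, 0.0593) lost their calls without the 3 libraries with both Xist and Ddx3y. Leaving out Cck-/- week 5 replicate 1 ended the calls of Tsc1 (adjusted p = 0.129), Ddit4 (0.106) and Sesn3 (0.0665), and other single libraries of the 6 ended 1 or more of these 3. Tbc1d7 kept its call in 6 of 6 such fits. Markers of mature oligodendrocytes fell over the same interval, from a mean log2 level of 7.87 to 8.12 to 6.62 to 6.82 in Cck-/- and from 7.44 to 7.45 to 6.72 to 7.04 in transgenic libraries, and their part was not tested.

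From week 12 to 28, 7 members were called in Cck-/- libraries, 1 higher and 6 lower, where 9.65% of all genes were called, 4.03% higher and 5.62% lower. In transgenic libraries 16 were called, 5 higher and 11 lower, where 23.8% of all genes were called, 10.2% higher and 13.7% lower. The members' median was -0.022 in Cck-/- and -0.075 in transgenic libraries, beside -0.00079 and -0.0031 over all genes. Called in the same direction in both genotypes were 6 genes, Akt1s1, Pik3ca, Rraga, Sesn1 and Eif4ebp2, which fell, and Nprl3, which rose. These are 85.7% of the 7 and 37.5% of the 16, beside 65.2% and 26.4% for all genes.

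The gene that rose in both genotypes, Nprl3, a subunit of the GATOR1 complex that switches off the Rags, was at 8.55, 8.17 and 8.32 FPKM at week 5, 8.07, 8.37 and 8.71 at week 12 and 10.5, 11.4 and 12.4 at week 28 in Cck-/- libraries (log2 change 0.40, SE 0.055, adjusted p = 0.000564). In transgenic libraries it was at 8.68, 8.97 and 8.53, 8.76, 9.70 and 8.74 and 11.5, 11.7 and 10.9 (log2 change 0.30, SE 0.055, adjusted p = 0.00215). Every week 28 library of either genotype was above every earlier library. Nprl3 overlaps Mpg on the opposite strand, and the strandedness of the libraries is not given in the sources used here, so reads of the 2 may not be told apart.

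Grb10 rose in transgenic libraries, from 6.15, 7.71 and 6.27 FPKM at week 5 and 8.95, 7.50 and 8.27 at week 12 to 11.7, 13.6 and 10.5 at week 28 (log2 change 0.49, SE 0.10, adjusted p = 0.00474 from week 12). In Cck-/- libraries it was at 6.65, 7.08 and 7.53, 8.97, 9.36 and 7.27 and 11.1, 9.71 and 10.7 (0.28, adjusted p = 0.107 from week 12). Rictor, the scaffold of mTORC2, went from 15.0, 12.8 and 14.9 to 17.4, 17.1 and 17.8 in transgenic libraries (log2 change 0.28, SE 0.068, adjusted p = 0.00892), Tsc1 from 12.8, 10.9 and 11.4 to 14.6, 13.8 and 13.5 (log2 change 0.24, SE 0.058, adjusted p = 0.00895) and Tsc2 from 19.4, 18.8 and 18.5 to 21.9, 22.6 and 22.3 (log2 change 0.23, SE 0.048, adjusted p = 0.00440). Tsc2 overlaps Pkd1 on the opposite strand. Tsc1, Tsc2 and Rictor thus stood above their week 12 values in every transgenic week 28 library, while Tbc1d7, the third subunit of the TSC complex, was at 12.3, 15.0 and 14.8 and then 14.2, 12.2 and 13.2.

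Of the 11 members that fell in transgenic libraries from week 12 to 28, Akt2 had the largest change (log2 change -0.48, SE 0.080, adjusted p = 0.00107). Rragd went from 32.2, 33.1 and 35.4 to 25.3, 23.9 and 26.6 FPKM (log2 change -0.40, SE 0.081, adjusted p = 0.00364), and was at 36.9, 34.5 and 37.1 and 27.3, 30.7 and 31.9 in Cck-/- libraries (-0.27, adjusted p = 0.0516). Sesn1 went from 55.1, 60.4 and 58.7 to 44.6, 41.1 and 47.5 (log2 change -0.38, SE 0.051, adjusted p = 0.000335) and in Cck-/- libraries from 54.8, 56.1 and 56.7 to 47.7, 49.7 and 48.6 (log2 change -0.20, SE 0.051, adjusted p = 0.0276). Eif4ebp2, a repressor of cap-dependent translation, went from 19.0, 17.4 and 16.1 to 13.9, 13.3 and 15.3 (log2 change -0.29, SE 0.068, adjusted p = 0.00850) and in Cck-/- libraries from 19.8, 18.5 and 19.7 to 16.1, 15.5 and 15.9 (log2 change -0.27, SE 0.068, adjusted p = 0.0226). The other 7 were Akt1s1 (-0.23), Rraga (-0.19), Rheb (-0.18), Lamtor3 (-0.18), Lamtor1 (-0.16), Mapkap1 (-0.15) and Pik3ca (-0.12). In Cck-/- libraries Pdpk1 also fell, from 25.4, 23.7 and 26.8 to 20.4, 22.1 and 21.3 (log2 change -0.24, SE 0.058, adjusted p = 0.0201), and Akt1s1, from 23.0, 23.3 and 24.0 to 20.3, 20.1 and 20.9 (log2 change -0.19, SE 0.047, adjusted p = 0.0218), beside Pik3ca (-0.17) and Rraga (-0.16).

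These age calls differ in how far they hold. The counts of all genes called in the settings below are not given here, so a loss particular to the members is not shown. Fitted on the compared groups alone, 0 of the 7 in Cck-/- libraries and 7 of the 16 in transgenic libraries were called, and without the 3 libraries with both Xist and Ddx3y, 3 were called in transgenic libraries, Akt2, Nprl3 and Sesn1, the other 13 having adjusted p from 0.0520 (Rragd, -0.41) to 0.254 (Rheb, -0.13). In Cck-/- libraries this setting ended the call of Sesn1 (-0.20, adjusted p = 0.0505), and the absence of the 3 low in choroid plexus genes ended those of Rraga in Cck-/- (-0.16, 0.0526) and Pik3ca in transgenic libraries (-0.14, 0.0547). In Cck-/- libraries the count fell to 1 without week 12 replicate 3, to 2 without week 12 replicate 1 or week 28 replicate 3, and to 4 without replicate 2 of either age. The calls of Eif4ebp2, Pdpk1, Sesn1 and Akt1s1 each ended without 3 to 5 of the 6 libraries, at adjusted p up to 0.0868 without week 12 replicate 3, while that of Nprl3 held without each library in turn (up to 0.00397). In transgenic libraries Grb10, Nprl3, Rictor, Tsc1, Akt2, Rragd, Sesn1 and Eif4ebp2 kept their calls without each of the 6 libraries in turn. Purkinje cell markers fell in transgenic libraries over this interval, from 6.57 to 6.81 to 5.39 to 6.22 (mean log2), and in Cck-/- libraries they were at 7.27 to 7.40 and 7.18 to 7.23, and their part was not tested.

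**Figure D4:**
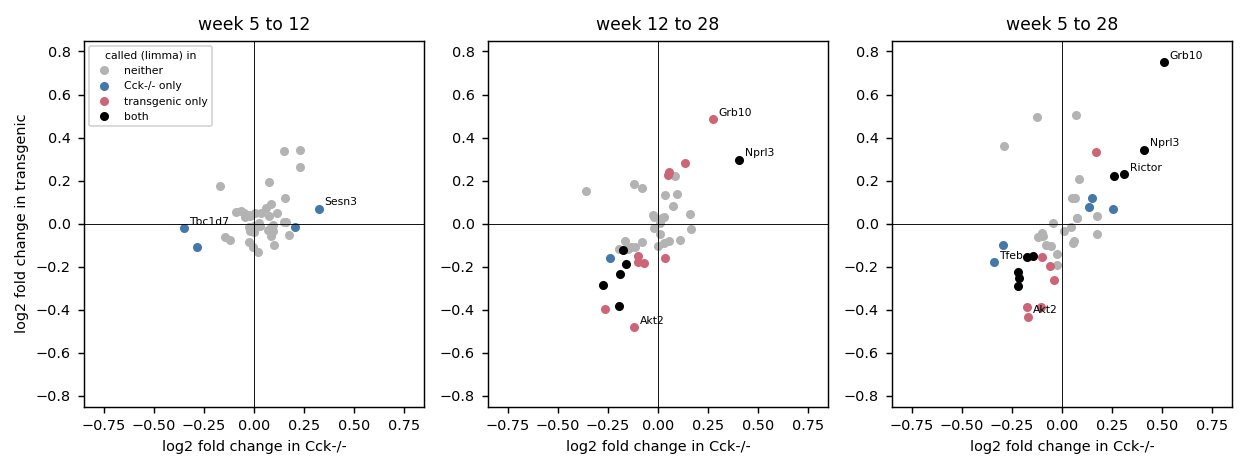
Change of each of the 43 members with age in Cck-/- (horizontal axis) and transgenic libraries (vertical axis), in log2(FPKM + 1), for the 3 intervals. Colour gives the genotype in which limma called the change, black for both. From week 12 to 28 more members are called in transgenic libraries (16) than in Cck-/- libraries (7), and from week 5 to 28 Grb10 has the largest called change in both.

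Over the whole span from week 5 to 28, a comparison added after the data were seen, 14 members were called in Cck-/- libraries, 7 higher and 7 lower, beside 33.7% of all genes (16% higher, 17.7% lower). In transgenic libraries 16 were called, 5 higher and 11 lower, beside 36.9% of all genes (17% higher, 19.9% lower). The share of members called, 14 of 43 and 16 of 43, was near that of all genes. Common to both, in the same direction, were 9: Grb10, Nprl3, Rictor and Tsc1 rose, and Akt1s1, Mapkap1, Pdpk1, Rraga and Lamtor3 fell. That is 64.3% of the 14 and 56.2% of the 16, beside 58.0% and 53.0% for all genes.

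Grb10 had the largest called change in both genotypes over this span, 0.51 in Cck-/- (SE 0.10, adjusted p = 0.00176) and 0.75 in transgenic libraries (SE 0.10, adjusted p = 0.000119). Nprl3 changed by 0.41 and 0.34 (adjusted p = 6.8e-05 and 0.000344). Rictor went from 12.6, 14.6 and 14.5 to 16.6, 17.5 and 18.3 FPKM in Cck-/- libraries (log2 change 0.31, SE 0.068, adjusted p = 0.00268) and from 15.4, 15.3 and 13.6 in transgenic libraries to the week 28 values above (log2 change 0.23, SE 0.068, adjusted p = 0.0161, adjusted p = 0.0779 without week 5 replicate 3). Tsc1 changed by 0.26 and 0.22 and Pdpk1 by -0.22 and -0.29. For Pdpk1 the values were 23.3, 26.2 and 25.4 and 27.1, 24.5 and 24.0 at week 5, and 19.7, 20.0 and 21.4 in transgenic libraries at week 28. The Cck-/- change of Pdpk1 was -0.19 (adjusted p = 0.0600) without the 3 libraries with both Xist and Ddx3y. Over the same span the mature oligodendrocyte markers went from 7.87 to 8.12 to 6.43 to 6.82 (mean log2) in Cck-/- and from 7.44 to 7.45 to 6.84 to 7.01 in transgenic libraries. Purkinje cell markers went from 7.15 to 7.20 to 7.18 to 7.23 and from 6.65 to 6.92 to 5.39 to 6.22, and microglia markers from 3.03 to 3.16 to 3.43 to 3.95 and from 3.04 to 3.37 to 4.02 to 4.54. Their part in these changes was not tested.

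Called in Cck-/- libraries and not in transgenic libraries were Mlst8 (0.25), Prkaa1 (0.15) and Rragb (0.13), which rose, and Tfeb (log2 change -0.34, SE 0.094, adjusted p = 0.0115) and Tbc1d7 (log2 change -0.29, SE 0.066, adjusted p = 0.00330), which fell. Tfeb went from 9.36, 8.31 and 8.78 to 6.03, 7.14 and 7.12 FPKM and had adjusted p = 0.0512 without week 28 replicate 1, its lowest library. In transgenic libraries these 5 had changes of 0.068, 0.12, 0.077, -0.18 and -0.10 in turn. Called in transgenic and not in Cck-/- libraries were Deptor (log2 change 0.33, SE 0.12, adjusted p = 0.0431), which rose, and Akt2 (log2 change -0.43, SE 0.080, adjusted p = 0.000876), Rragd (log2 change -0.39, SE 0.081, adjusted p = 0.00215), Eif4ebp2 (log2 change -0.39, SE 0.068, adjusted p = 0.000690), Sesn1 (-0.26), Rheb (-0.20) and Pik3ca (-0.15), which fell. Rragd had stood at 38.3, 33.6 and 28.7 and Eif4ebp2 at 19.0, 19.7 and 17.7 at week 5. Deptor, an inhibitor within both mTOR complexes, went from 2.66, 2.42 and 2.87 to 4.07, 3.72 and 3.06 FPKM, and its call ended without any one of 5 of the 6 libraries, all but week 28 replicate 3 (adjusted p up to 0.162, without week 28 replicate 1). Deptor was not called with no filter, quantile normalization or sex as a covariate either, nor without each set of 3 doubted libraries (adjusted p up to 0.217). Without the 3 libraries low in choroid plexus genes, 4 more transgenic calls ended: Rragd (-0.21, adjusted p = 0.0966), Pik3ca (-0.14, 0.127), Rraga (-0.18, 0.0785) and Tsc1 (0.27, 0.0540). Without those with both Xist and Ddx3y, Rheb (-0.16, adjusted p = 0.0658) lost its transgenic call, and Rragb (0.12, 0.0636) and Prkaa1 (0.15, 0.0542) their Cck-/- calls. None of these members was called in the interaction of genotype and age, so the difference between genotypes in these changes was not shown.

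Sesn2, Slc7a5 and Eif4ebp1 had the widest spread within groups. Their SD within groups was 0.55, 0.35 and 0.44 on the log2 scale, against 0.026 to 0.16 in the other 40 members. In Cck-/- libraries of week 5 Sesn2 values were 8.07, 4.23 and 7.05 FPKM, followed by 9.03, 10.5 and 4.35 at week 12 and 11.2, 3.75 and 4.06 at week 28, and in transgenic libraries they were 4.16, 4.19 and 4.22, 9.89, 4.29 and 3.96 and 7.52, 8.68 and 3.74 at the same ages. The gene thus took values of 7.05 to 11.2 in 8 libraries and of 3.74 to 4.35 in the other 10, with none between. The 8 came from 5 of the 6 groups, both genotypes, all 3 ages and replicate numbers 1, 2 and 3, and none was a transgenic week 5 library.

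Slc7a5, the transporter that brings leucine into cells, had week 5 values of 36.8, 25.6 and 31.2 FPKM, with 32.4, 32.9 and 19.1 at week 12 and 34.3, 22.4 and 20.5 at week 28 in Cck-/- libraries, and values of 25.6, 21.8 and 27.7, 40.8, 25.2 and 21.8 and 37.4, 36.0 and 24.8 in transgenic libraries. Eif4ebp1, a repressor of cap-dependent translation, stood at 2.33, 0.715 and 2.02, 2.12, 2.75 and 1.01 and 3.20, 1.08 and 1.28 in Cck-/- and at 1.06, 0.958 and 1.63, 2.75, 1.45 and 1.34 and 2.00, 3.24 and 1.37 in transgenic libraries at the same ages. The 8 libraries highest in Sesn2 were also the 8 highest in Slc7a5 and the 8 highest in Eif4ebp1. As background, all 3 genes are known targets of ATF4, the transcription factor of the response to amino acid shortage and other stress.

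**Figure D5:**
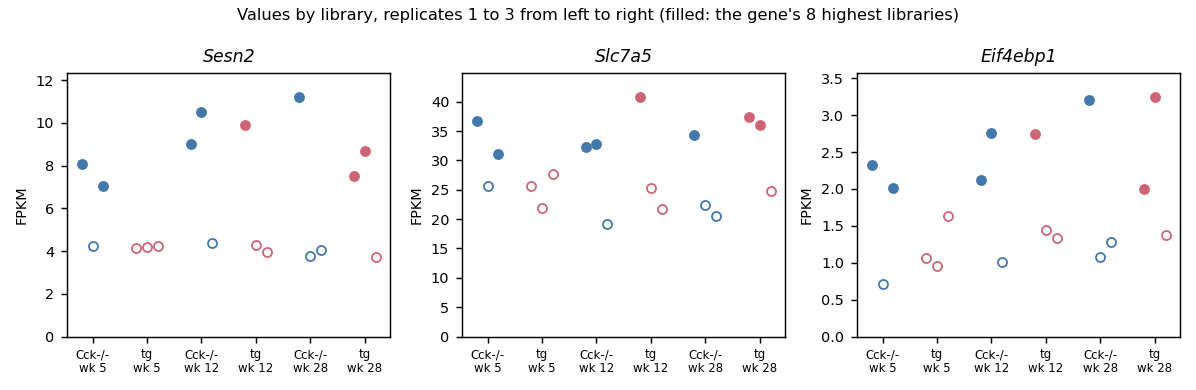
FPKM of Sesn2, Slc7a5 and Eif4ebp1 in each library, by genotype (blue Cck-/-, red transgenic, tg) and week, with replicates 1 to 3 from left to right in each group. Filled points are the 8 highest libraries of that gene, and they are the same 8 libraries in the 3 panels.

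Because of this spread, genotype differences of these 3 genes were imprecise. At week 5 the 95% interval of the log2 difference was -1.33 to 0.37 for Sesn2, -0.84 to 0.25 for Slc7a5 and -0.92 to 0.45 for Eif4ebp1, and at week 28 it was -0.71 to 0.99, -0.20 to 0.89 and -0.49 to 0.89. For comparison, the interval at week 28 was -0.090 to 0.043 for Rragc, the most precise member. Differences of 0.5 in Sesn2 between genotypes could not be told from 0 in these libraries.

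In the same 8 libraries as the highest were 50 of the 13487 genes tested, listed by this order alone and without a test. Beside the 3 members they included 5 of the other pathway genes examined, Atf4 itself, the asparagine synthetase gene Asns (37.7 to 72.6 FPKM), the one-carbon enzymes Mthfd2 (4.11 to 10.1) and Shmt2 (10.8 to 18.1), and Slc3a2, the partner of Slc7a5 (42.9 to 62.9). Slc7a3, a transporter of cationic amino acids, had one of the widest gaps, with 8 libraries at 4.86 FPKM or more and 10 at 1.15 or less. In Atf4 the gap was narrow, the 8th highest library being 1.03 times the 9th, against 1.62 times in Sesn2. Sesn1 and Sesn3, the other sestrins, and Eif4ebp2 did not have these 8 libraries as their highest.

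Of 86 other genes of the pathway, 8 were called at week 5, 4 higher and 4 lower in transgenic libraries, 0 at week 12 (6 at an unadjusted p under 0.05) and 5 at week 28, 3 higher and 2 lower. The shares of all genes called were 7.67%, 1.36% and 10.7%, so the count was near that share at week 5 and below it at weeks 12 and 28. At week 5 the smallest p was that of Irs2, which couples the insulin receptor to PI3K, at 10.4, 11.8 and 11.3 FPKM in Cck-/- and 16.4, 14.6 and 14.9 in transgenic libraries (log2 change 0.43, SE 0.053, adjusted p = 0.000233). Fkbp1a, the rapamycin-binding protein FKBP12, was at 179, 173 and 171 and 153, 142 and 147 (log2 change -0.24, SE 0.047, adjusted p = 0.00595), Lpin1, a lipid enzyme regulated by mTORC1, at 6.39, 7.51 and 6.80 and 8.67, 9.13 and 8.47 (log2 change 0.31, SE 0.070, adjusted p = 0.0160), and Telo2, needed for the stability of mTOR, at 10.2, 9.25 and 10.3 and 8.70, 7.80 and 7.99 (log2 change -0.25, SE 0.060, adjusted p = 0.0201). None of these 4 pairs of groups overlapped. Without the 3 libraries low in choroid plexus genes 7 of the 8 lost their call, among them Fkbp1a (-0.25, adjusted p = 0.0535), Lpin1 (0.26, 0.281) and Telo2 (-0.28, 0.137), and Irs2 kept it. Lpin1 also lost it without any one of 3 of the 6 libraries (adjusted p up to 0.0778, without Cck-/- replicate 1) and Telo2 without any one of 4 (up to 0.0882, without transgenic replicate 2). Irs2 alone of the 86 was called in an interaction, from week 5 to 12 (-0.49, adjusted p = 0.00640) and from week 5 to 28 (-0.41, adjusted p = 0.0139). Of all genes, 0.667% and 3.65% were called in these interactions in turn.

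At week 28 the regulatory PI3K subunit Pik3r1 was higher in transgenic libraries, at 25.8, 26.1 and 25.6 FPKM in Cck-/- and 34.4, 31.0 and 33.0 (log2 change 0.33, SE 0.055, adjusted p = 0.00100). Srebf1, the lipogenic transcription factor downstream of mTORC1, was at 21.0, 16.8 and 17.8 and 25.9, 26.4 and 21.9 (log2 change 0.40, SE 0.11, adjusted p = 0.0277). Lower in transgenic libraries were Fkbp1a, at 146, 151 and 151 and 116, 122 and 131 (log2 change -0.28, SE 0.047, adjusted p = 0.00135), and the AMPK subunit Prkab2, at 9.40, 10.3 and 10.5 and 7.93, 7.32 and 9.28 (log2 change -0.27, SE 0.081, adjusted p = 0.0415). The calls of Srebf1 and Prkab2 ended without any one of 4 of the 6 libraries (adjusted p up to 0.131 and 0.205, both without transgenic replicate 2) and without the 3 libraries with both Xist and Ddx3y (0.37, adjusted p = 0.159, and -0.26, 0.177). Averaged over ages 9 were called, 5 higher and 4 lower, beside 14.8% of all genes, led by Fkbp1a (-0.22, adjusted p = 5.2e-05), Pik3r1 (0.23, adjusted p = 0.000133), Srebf1 (0.34, adjusted p = 0.00169) and Prkab2 (-0.20, adjusted p = 0.00799).

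With age, 10 of the 86 were called from week 5 to 12 in Cck-/- libraries, 4 higher and 6 lower, beside 11.8% of all genes, led by Irs2 (0.42), Gatsl2, a relative of the arginine sensor of this pathway (0.35), the lysosomal Lamp1 (-0.27) and the mTORC2 gene Prr5l (-0.46), and 0 in transgenic libraries (6 at an unadjusted p under 0.05). From week 12 to 28, 8 were called in Cck-/- libraries, 2 higher and 6 lower, beside 9.65% of all genes, led by Irs2 (-0.35), the AMPK subunit Prkab1 (0.37), Rhebl1, a relative of Rheb (-0.40), and Mitf, a relative of Tfeb (0.29). In transgenic libraries 15 were called over that interval, 8 higher and 7 lower, beside 23.8% of all genes, led by Irs2 (-0.27), the Ragulator subunit Lamtor5 (-0.28), Srebf1 (0.47) and Prkab1 (0.28). From week 5 to 28 the counts were 30 in Cck-/- libraries, 17 higher and 13 lower, led by Pik3r1 (-0.36), Eif4a1 (-0.31), Rhebl1 (-0.43) and Rps6ka1 (-0.68), and 31 in transgenic libraries, 14 higher and 17 lower, led by Atg101 (-0.44), Irs2 (-0.34), Tmem127 (-0.20) and Sqstm1 (0.25). These counts were near or below the share of all genes in each interval. For the settings that follow, the counts of all genes called are not given here, so a loss particular to these genes is not shown. Without the 3 libraries with both Xist and Ddx3y, 14 of the 15 lost their call, and from week 5 to 28 in transgenic libraries 14 of the 31 did, beside 15 without the 3 low in choroid plexus genes.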

How the data were processed

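RNA libraries from cerebellum (3 per group, 18 in all) were made with an Illumina TruSeq kit, per the labels' protocols. The authors deposited FPKM per gene symbol from Cufflinks 2.2.1 after TopHat2 2.0.11 alignment to mm10, per the submitters' processing notes; no source used here gives the annotation, strandedness or normalization setting. Depth is unknown, so no counting intervals were computed. None of the members' values had a failed status. The members and gene lists were chosen with earlier results of these data known.

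Log2(FPKM + 1) values of the 13487 genes with at least 1 FPKM in at least 3 libraries were fitted with limma 3.58.1 in R 4.3.3, with 1 mean per group, a mean-variance trend and 12 residual degrees of freedom. There were 13 comparisons, 2 of them (week 5 to 28) added after the data were seen, with two-sided p-values adjusted by Benjamini and Hochberg within each. The fit was tested on simulated data. Every member was named with its range. Values by library were given for members called between genotypes, for the 4 largest called changes in each direction with age and, where none was called, for the 3 smallest p. Of 89 other pathway genes listed, 86 were in the table and tested, and up to 4 with the smallest p were named per comparison. The coordinates of the table start at 0 and were raised by 1. Genes overlapping Mtor, Rptor, Mlst8, Deptor, Tsc2, Lamtor1, Nprl3 and Rps6kb1 may share reads with them. Promoters came from RefSeq (GRCm38.p6). Alternatives varied the pseudocount, filter, scaling, block, samples fitted and libraries left out. Tables were read with pandas 2.3.3 and with data.table, version 1.17.8, and plots were made in matplotlib 3.10.9.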

Additional observations from a re-analysis of the deposited data

Results flagged for a closer look

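Irs2, the adaptor between the insulin receptor and PI3K and not one of the 43 members, had a genotype difference that changed with age by a test of that change. It stood at 10.4, 11.8 and 11.3 FPKM in Cck-/- and 16.4, 14.6 and 14.9 in transgenic libraries at week 5, at 14.7, 14.9 and 16.2 and 14.3, 14.6 and 14.9 at week 12, and at 11.5, 12.2 and 11.5 and 11.5, 12.2 and 12.1 at week 28. Every transgenic library was thus above every Cck-/- library at week 5, and the groups overlapped at weeks 12 and 28. The interaction was -0.49 (SE 0.076, adjusted p = 0.00640, limma) for week 12 against 5 and -0.41 (SE 0.076, adjusted p = 0.0139, limma) for week 28 against 5. Each kept its call without any single library. Among all genes, 0.667% and 3.65% were called in these interactions in turn. Without the 3 libraries low in choroid plexus genes, of which 2 are transgenic week 5 libraries, the interactions were -0.46 (adjusted p = 0.0783) and -0.38 (0.0535) in turn, and without the 3 with both Xist and Ddx3y they were -0.53 (0.0412) and -0.41 (0.0765), so their sizes stayed close while 3 of the 4 missed the threshold. The part of these libraries in the result was not tested. No group had enough libraries for a check of single outlying values.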

How the results depend on the processing

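No change called in a member or in one of the 86 other pathway genes turned its sign under any alternative, while changes that were not called were not all followed. Of 524 values of named members under alternatives other than leaving out 1 library, 490 stayed on their side of the threshold and 34 lost a call. The 524 include members named without a call, which had none to lose. Over all alternatives, those leaving out 1 library included, 154 of 1094 called values of the members lost the call. Of the other pathway genes, 419 of 1991 did. The pseudocount of 0.1, the absence of a filter or one at a mean FPKM of 5, median-ratio rescaling and sex as a covariate moved no count of called members by over 1.5 times. The median-ratio factors ran only from 0.996 to 1.01 over the 18 libraries, so that this rescaling could move little. With the replicate block the counts were 1 at week 5, 0 at week 12, 2 at week 28, 5 averaged, 0 in each interaction, 4 and 7 in Cck-/- and 0 and 15 in transgenic libraries for the successive age intervals, and 14 and 18 from week 5 to 28. Replicate numbers were not taken to pair libraries: deviations from group means of libraries with the same number had a median correlation of -0.018 over 45 pairs, against 0.037 over 90 pairs with different numbers. Other counts moved as follows. At week 5 it was 0 without the 3 libraries low in choroid plexus genes. At week 28 it was 1 with quantile normalization, 0 with the compared groups only, 4 without the same 3 libraries and 1 without those with both Xist and Ddx3y. The last setting gave 3 for the averaged effect, 2 for week 5 to 12 in Cck-/- libraries and 3 for week 12 to 28 in transgenic libraries. With the compared groups only, week 12 to 28 gave 0 in Cck-/- and 7 in transgenic libraries, with fewer libraries behind each estimate of spread. Without 1 library at a time the counts ran from 1 to 1 at week 5, 0 to 0 at week 12, 0 to 4 at week 28, 3 to 6 averaged, 0 to 1 in the interactions with week 5, 0 to 0 in that of week 28 with 12, 2 to 4, 1 to 8 and 12 to 14 in Cck-/- libraries (week 5 to 12, 12 to 28 and 5 to 28), and 0 to 0, 13 to 17 and 14 to 16 in transgenic libraries. The averaged effect uses all groups, so the fit of compared groups only was not run for it. Scaling moved the median of all genes by under 0.01 (log2). The cause of the moved counts was not tested. Counts of all genes called under each alternative are not given here, so a change particular to the members is not shown. The number of libraries per group limits the precision.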

Other observations

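Other genes shared the 8 highest libraries with Sesn2, Slc7a5 and Eif4ebp1. They included 8 genes of aminoacyl-tRNA synthetases, which load amino acids onto tRNAs: Gars (47.5 to 66.7 FPKM over the 18 libraries), Cars (9.29 to 15.9), Mars (23.9 to 32.8), Yars (30.1 to 39.8), Sars (40.0 to 56.7), Nars (83.8 to 115), Iars (15.9 to 20.0) and Aars (52.8 to 64.8). Genes of amino acid transport and synthesis were there too, among them Slc7a1 (5.47 to 10.4), Slc1a4 (7.53 to 14.9), Psph (11.5 to 18.9) and Aldh18a1 (6.71 to 10.7), as were the stress genes Chac1 (1.84 to 7.96), Trib3 (0.268 to 1.89) and Atf5 (11.8 to 20.7). In several of these genes the 8th and 9th highest libraries were close. The 8th was 1.01 times the 9th in Aars, Iars and Nars and 1.02 times in Atf5, against 1.62 times in Sesn2. These genes were picked from the 50 after their values were seen, and the order of libraries is a description without a test. The 50 also held genes outside these groups, such as Nuf2, Copa and Adar. The labels give no day, cage or batch by which the 8 libraries could be set apart. In each group that held some of the 8, granule neuron markers (mean log2) were lower in them than in the others. The gap was widest at week 28 in Cck-/- libraries, 6.80 against 7.21 and 7.29. It was narrow in transgenic ones of that age, 7.16 and 7.15 against 7.18. Cck was higher in them in each such group. No other marker set kept the same order in all these groups. The part of these levels in the pattern was not tested.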
